A study of Mus musculus with 8 samples.

Results

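The samples described here are the untreated RAW 264.7 cells of an 8-array time course, read from the green (Cy3) channel of each array alone. They make up 8 of the 16 channels of the series, and they were taken by the dye and the untreated label, not by any measured value. RAW 264.7 is a macrophage-like cell line from BALB/c mice. Cells grew without antibiotic in DMEM with 10% heat-inactivated fetal bovine serum, and each sample pools equal amounts of RNA from 3 cultures. The late group holds 4 channels (untreated cells at 4 h and 6 h) and the early group 4 channels (untreated cells at 1 h and 2 h). The red channel of the same arrays carried RNA of cells given Lactobacillus acidophilus MTCC-10307 (slide 1) or Bacillus clausii MTCC-8326 (slide 2) at 100 bacteria per cell for the same time, and it is used below only as a second reading of the same spots. Each slide holds 1 untreated channel per time. The sources used here do not say whether both slides carried the same untreated pools, so p-values measure the spread between these channels, which may be technical. On both slides the 1, 2, 4 and 6 h arrays sat at positions 1, 2, 3 and 4, so time in culture and position on the slide cannot be told apart.

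Macrophages are phagocytes that take up microbes and debris and report them through Toll-like receptors and Cd14. Engaged receptors activate NF-kB, which drives chemokine genes and also its own inhibitor, Nfkbia. A culture without added microbes still carries chemokine and stress transcripts whose levels can move with medium change, density and handling.

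An untreated channel had signal well above background on 42.1% to 47.4% of its 41174 probes, and no spot was saturated. All levels below are log2 signals after background correction and quantile normalization, and a gene is read by its brightest probe. Signals of different probes are not an order of transcript abundance, because probes differ in how strongly they bind. The 12687 genes tested had a median log2 signal of 9.48.

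The resting cells carried a macrophage profile. Of 22 macrophage identity genes, 19 were well above background in all 8 channels, 2 in some and 1 in none. The brightest were Fcer1g (15.41) and Tyrobp (15.36), the signalling adaptors of Fc and myeloid receptors, and Lyz2 (15.08), which encodes lysozyme. Csf1r, the receptor for macrophage colony-stimulating factor, had late values of 13.03, 13.34, 13.35 and 13.46 and early values of 13.42, 13.28, 13.47 and 13.37. The groups overlapped. Cd14, the lipopolysaccharide co-receptor, lay between 13.86 and 13.93 in the late channels and between 13.85 and 14.04 in the early ones. Spi1, the transcription factor of the myeloid lineage, had a mean of 9.38, and Adgre1, an adhesion receptor used as a macrophage surface marker, a mean of 8.76. Itgam, the alpha chain of the CD11b integrin, was well above background in 3 of 8 channels.

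Of 24 phagocytic and scavenger receptor genes, 19 were well above background in every untreated channel. They include the Toll-like receptor genes Tlr2 (mean 12.71), Tlr4 (9.72) and Tlr9 (8.76). The mannose receptor gene Mrc1, the apoptotic-cell receptor genes Mertk and Axl, and the beta-glucan receptor gene Clec7a were well above background in none. Among 26 cytokine and chemokine genes on the array, 14 were well above background in all 8 channels and 8 in none. Ccl9 (14.42), Ccl2 (13.40), Tnf (12.61) and Ccl4 (12.50) were bright without treatment. Il1a, Il1b, Il6, Il12b, Csf2, Csf3, Ccl6 and Cxcl1 were well above background in no channel. Of 12 osteoclast genes, which this line can induce, 8 were well above background in all channels, and carbonic anhydrase gene Car2 was at 15.61.

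Markers of other cell types were mostly not well above background. No NK and mast cell, neutrophil or fibroblast marker was well above background in all 8 channels. The exceptions in other lists included Cd5 (10.60) and Lck (8.35) among 10 T cell markers, Blnk (10.62) among 8 B cell markers, and 1 gene each among the dendritic, erythroid, epithelial and endothelial lists. The T cell genes Cd3d, Cd3g and Cd8a and the B cell gene Ms4a1 were well above background in none. In some channels, though, 3 genes of the T cell list were well above background. Cd3e, a further CD3 gene, was bright enough in at least 4 channels to be tested and read 6.42 to 8.22. Summed T cell marker signals, over the 3 tested genes, were 1774 to 2390 in late and 1979 to 2291 in early channels. Summed neutrophil marker signals, over 2 tested genes, were 181 to 256 in late and 260 to 268.4 in early channels, near background in both, and their part in the comparisons below was not tested.

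**Figure D1:**
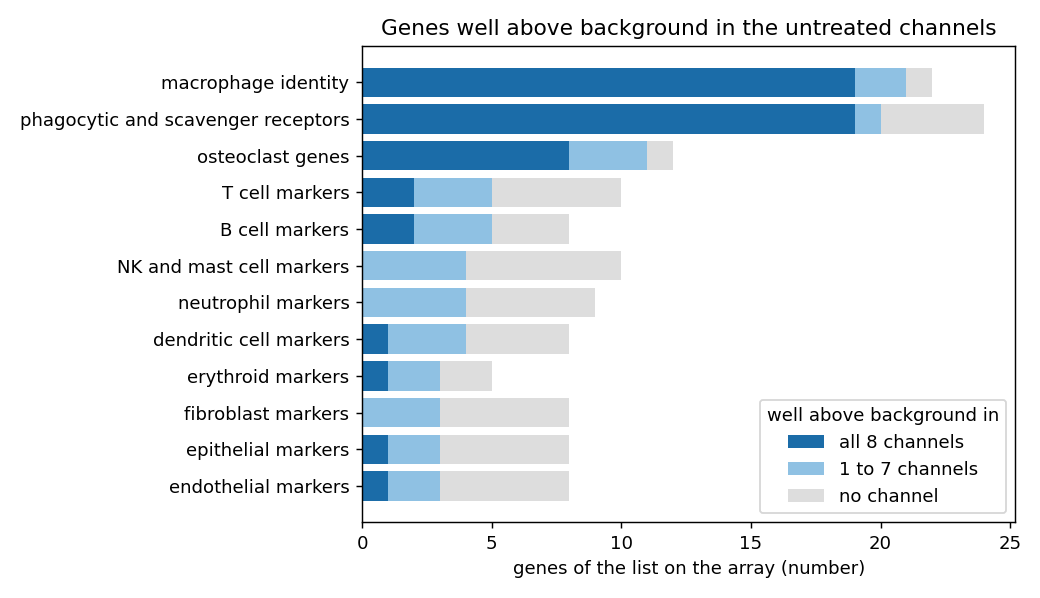
Horizontal bars give the number of genes of each list on the array, split by whether they were well above background in all 8 untreated channels, in 1 to 7 or in none. Macrophage identity genes were well above background in all 8 channels for 19 of 22, while no neutrophil, fibroblast or NK and mast cell marker was.

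The 25 brightest genes were dominated by the translation machinery, with 17 of 25 encoding cytosolic ribosomal proteins, and 38 among the brightest 100. Rpl8 (16.84), Rpl7a (16.77), Rps28 (16.70) and Rpl41 (16.69) led them. The other 8 were Aldoa (17.24), the glycolytic aldolase; S100a4 (17.04), a calcium-binding protein; Fth1 (16.69), the iron-storing ferritin heavy chain; Cox6a1 (16.65), a subunit of cytochrome c oxidase; Ptprz1 (16.58), a receptor phosphatase; Eif3g (16.56), an initiation factor; Cdc37 (16.44), a kinase co-chaperone; and Gm10653 (16.35). Aldoa lay between 17.08 and 17.28 over the channels. Quantile normalization gives spots of equal rank the same value in every channel, so a small spread among the brightest is partly set by it. A bright reading can belong to 1 probe, since other kept probes read 9.31 at the lowest for Rpl7a, 10.24 for Cdc37 and 11.16 for Rpl5. Ptprz1, S100a4, Fth1, Cox6a1, Eif3g and Gm10653 each had only 1 kept probe, so no other probe of the gene stands beside their reading.

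No gene passed the test between late and early untreated channels. The fit of slide and phase in limma (Benjamini-Hochberg adjusted p under 0.05) called 0 of 12687 genes (0%), and the lowest adjusted p was 0.4175. At an unadjusted p under 0.05, 805 genes (6.35%) were higher and 475 (3.74%) lower in late channels. The median standard error was 0.0746 log2, and 56 genes (0.441%) differed by at least 2-fold. All 4 late channels lay above all 4 early ones in 482 genes (3.8%) and below them in 302 (2.38%). The count of 0 became 199 without the 2 h channels and 153 without the 4 h channels. Across genes the late minus early change had a Pearson r of 0.42 between the slides, and of 0.65 between the untreated and the treated channel, which share arrays and positions. Both are descriptions over genes, which are not replicates.

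The 10 genes with the smallest p among those higher late are given as values, since none passed. Nop56, a core protein of box C/D small nucleolar RNPs, had late values of 14.47, 14.53, 14.37 and 14.49 and early values of 13.74, 13.96, 13.95 and 14.03. Every late channel lay above every early one, with means of 14.47 ± 0.07 and 13.92 ± 0.13 (SD, n = 4 each). The difference was 0.54 ± 0.08 (SE), and the limma adjusted p was 0.4175. A second Nop56 probe, dimmer at 7.26 to 7.45, differed by 0.11. Npm1, the abundant nucleolar phosphoprotein, averaged 15.64 ± 0.02 late and 15.37 ± 0.05 early (SD, n = 4 each). Prpf38b and Rbm5 (pre-mRNA splicing) and Phax (export of small nuclear RNA) differed by 0.58, 0.33 and 0.49. Prpf38b was well above background in 1 of 4 early channels, and its other probe differed by 0.39. Pigp (GPI anchor synthesis), Pitrm1 (a mitochondrial protease) and Ormdl2 (a regulator of sphingolipid synthesis) differed by 0.88, 0.59 and 0.72. Opa1, which fuses mitochondrial inner membranes, differed by 0.65 on its brightest probe, and its other kept probes by -0.09 and -0.10.

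Ccl3, the chemokine MIP-1 alpha, had the largest difference of the 10. Its late values were 12.16, 12.70, 12.24 and 12.22 and its early values 10.99, 11.43, 11.12 and 11.69. All late channels were above all early ones, by 1.02 ± 0.19 log2 (SE), with a limma adjusted p of 0.4175. In the treated channel of the same spots the change was -0.38. Of the 10 genes, 8 had the same sign in the treated channel, Ccl3 had the opposite sign and Pigp had no complete treated reading.

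The 10 genes with the smallest p among those lower late were dim, each below the median gene in every channel and 6.21 at the lowest. Several are known from other tissues: Prm1 (sperm protamine), Ctrb1 (pancreatic chymotrypsinogen), Cyp2c37 (a cytochrome P450), Grin2d (an NMDA receptor subunit) and Ern2 (an ER stress sensor of mucosal epithelium). The others were Gm4425, Ly6g5b, P4htm, 2610035D17Rik and Marchf10. Prm1 read 7.62, 7.48, 7.55 and 7.32 late and 8.10, 7.82, 7.86 and 7.73 early, and its other kept probe differed by -0.01. The other kept probe of Cyp2c37 differed by -0.36, against -0.66 on the brightest. All 10 had the same sign in the treated channel.

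**Figure D2:**
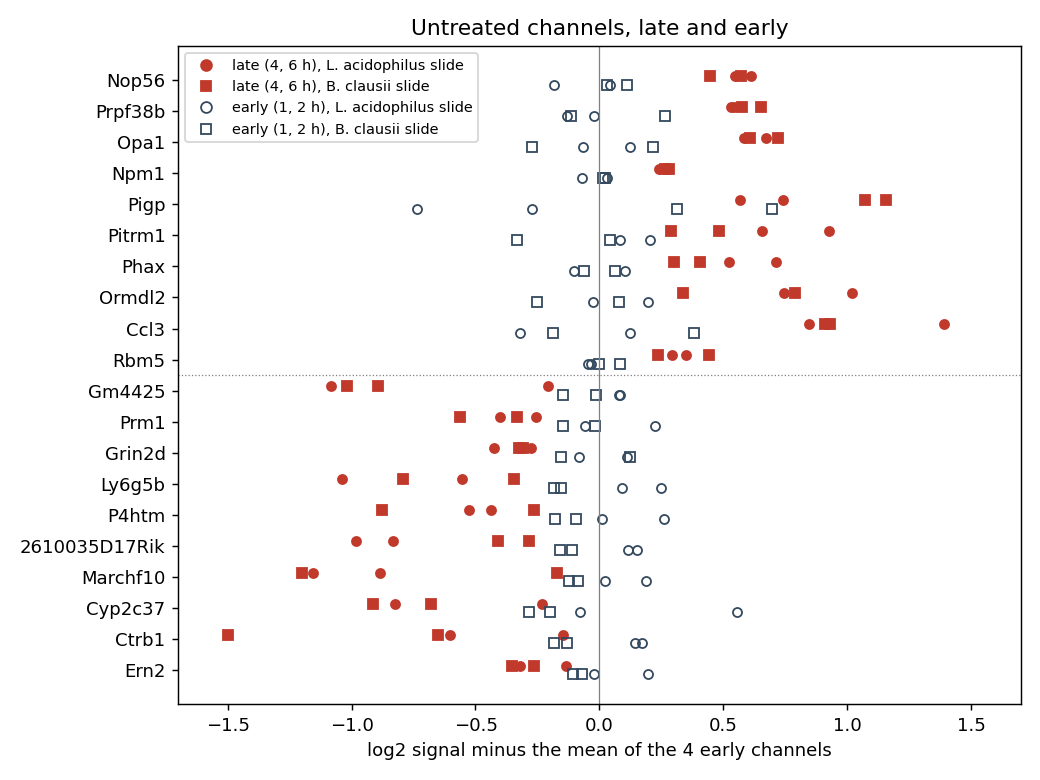
Points show the log2 signal of each untreated channel minus the mean of the 4 early channels, for the 10 genes with the smallest p in each direction (late filled, early open, circles slide 1, squares slide 2). Late and early separate over all channels in 9 of the 10 higher and 8 of the 10 lower genes, which were chosen by smallest p; none passed the adjusted threshold.

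Of a panel of 30 macrophage and stress genes, 27 were tested. Ccl2 differed by 0.01, Myc by -0.03, Asns by -0.03, Ccl4 by -0.05 and Tnf by -0.08 log2. Nfkbia, the inhibitor that NF-kB induces, differed by 0.62, with 12.31 and 12.66 in the 1 h channels and 13.30 to 13.65 in those of 2, 4 and 6 h. Junb and Cd68 each had 1 channel far from the rest. Junb, an AP-1 subunit, read 9.23 at 4 h on the B. clausii slide and 14.34 to 14.65 in the other 7, and its second probe read 13.46 in that channel. Cd68, a lysosomal macrophage protein, read 11.64 at 2 h on that slide and 13.06 to 13.78 elsewhere.

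No list held a gene that passed the adjusted threshold, and the lists are described beside all genes, whose median late minus early was -0.03 with 6.35% higher and 3.74% lower at an unadjusted p under 0.05. Cytosolic ribosomal proteins had a median of 0.08, with 7 of 41 higher and 4 lower by that rule. Oxidative phosphorylation genes had a median of 0.06, with 6 of 30 higher and 0 lower. For heat-shock chaperones 5 of 18 were higher, for translation factors 5 of 23 higher and 2 lower, and for proteasome subunits 5 of 30 higher and 1 lower. Cholesterol synthesis (0 of 24 higher, 1 lower), interferon-stimulated (0 of 17 higher, 1 lower) and immediate early genes (0 of 23 higher, 1 lower) had medians of -0.04, -0.02 and -0.03.

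Single steps of time gave calls at the last one. From the fit of slide and time, 2 h minus 1 h and 4 h minus 2 h called 0 genes (0%) each in limma, with 826 (6.51%) and 177 genes (1.4%) at an unadjusted p under 0.05. At 6 h minus 4 h, 89 genes (0.702%) were lower and 1 (0.00788%) higher in limma. The single gene higher, known only by the file's name NAP071111-1 and named here after its values were seen, rose by 1.31. The 89 lower genes fell by a median of 0.95 log2, between 0.66 and 1.25; their median was -0.46 with processed signals and -0.63 with the mean over a gene's probes. Their median relative to 1 h was -0.06 at 2 h, -0.06 at 4 h and -0.97 at 6 h. Impact, a regulator of Gcn2, fell by 1.25 (adjusted p = 0.02798), Mrps23, a mitochondrial ribosomal protein, by 1.24 (0.03572), Rasa3, a Ras GTPase-activating protein, by 1.17 (0.03194) and Ccne2, cyclin E2, by 1.15 (0.03718), all limma adjusted p. By list, 2 of 33 splicing factors (Clk4 and Srrm2), 2 of 16 histones (H1f0 and H2ax) and 1 gene each of the phagocytic receptors (Clec4d), LXR targets (Abca1, the cholesterol exporter), G1/S genes (Ccne2) and apoptosis regulators (Casp9) were lower. No gene was called at this step from the processed signals or with a normexp offset of 0, though 87 of the 89 kept their sign with processed signals, the exceptions being Clec4d (0.0667) and H2ax (0.0493). Without 1 channel the calls ranged from 0 to 641: 641 without the 6 h channel of the L. acidophilus slide, 383 without that of the B. clausii slide, 1 without the 4 h channel of the L. acidophilus slide and 0 without any other.

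Other probes of the same genes mostly did not show these falls. Of the 89 genes, 48 have other kept probes, 61 in all, and these moved by a median of 0.02 log2 (quartiles -0.06 and 0.08). The 18 of them at least as bright as the median gene moved by a median of -0.001. Dusp4, a MAP kinase phosphatase, and Nelfa, a subunit of the elongation factor NELF, were the 2 genes whose every other probe moved the same way by at least 0.5 of the change. In the treated channel the same spots differed by a median of -0.997, with the same sign in 88 of 88 genes with a value. The cause of the disagreement between probes was not tested.

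**Figure D3:**
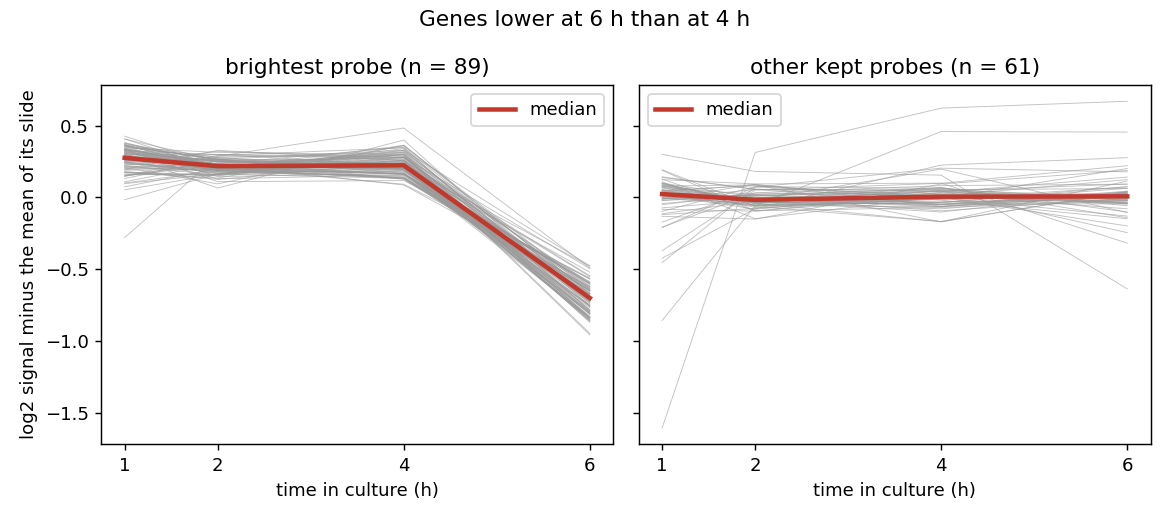
Thin lines give the log2 signal of the 89 genes lower at 6 h than at 4 h, averaged over both slides and minus the slide mean, for the brightest probe (left) and for the 61 other kept probes of the same genes (right), against time in culture. The red medians are level to 4 h and lie lower at 6 h on the left, and are level throughout on the right, where the median change was 0.02.

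The probes of 3 genes are shown as cases where probes of a gene differ (Ccne2 at this step, Opa1 between late and early) or move the same way (Rpl30 between 1 h and 6 h), as the first 30 of 60 bases, 5′ to 3′, with mm9 positions of the whole probe from the array files and no base in capitals. The Ccne2 probes lie 56 bases apart on the genome, and the first, the brightest, fell by 1.15 at 6 h against 4 h while the second moved by 0.04. The Opa1 probes differ likewise between late and early (0.65, -0.09 and -0.10), and the Rpl30 probes, 678 bases apart, moved the same way between 1 h and 6 h (2.14 and 3.99). The first Opa1 position spans more than the probe's 60 bases.
Ccne2, chr4:11130171-11130230, plus strand: cagctgtcaccagtgtgtaatggaggcatt
Ccne2, chr4:11130287-11130346, plus strand: ataaatgagttttacagaaaagtagtgctg
Opa1, chr16:29629784-29630207, plus strand: cagcagcttacaaacactgaagttaggcga
Opa1, chr16:29654145-29654204, plus strand: agtgagacttcctaactgtacagcgtggga
Opa1, chr16:29654447-29654506, plus strand: ctgtagcaactggaaatgtgcttgaaaata
Rpl30, chr15:34371010-34371069, minus strand: tcactacagtggcaataaaattgaactggg
Rpl30, chr15:34370272-34370331, minus strand: agaacagactggtgagaagtaaacaagaaa

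The widest interval, 6 h minus 1 h, was added after seeing the data and called 357 genes (2.81%) higher and 224 (1.77%) lower in limma. Without 1 channel the calls ranged from 0 to 1448: 0 without either 4 h channel, 131 without the 1 h channel of the L. acidophilus slide, 155 without either 2 h channel, and 1448 and 1185 without the 6 h channel of the L. acidophilus and the B. clausii slide. With processed signals 30 genes passed. Ltbr, the lymphotoxin beta receptor, read 6.26, 9.22, 10.16 and 10.35 at 1, 2, 4 and 6 h on the L. acidophilus slide and 7.37, 9.41, 10.33 and 10.41 on the B. clausii slide. Its 1 h spot was well above background on 1 of 2 slides. Both slides were lowest at 1 h. Ckap4, a membrane protein of the endoplasmic reticulum, rose by 3.50 ± 0.36 and Washc1, of the endosomal WASH complex, by 3.30 ± 0.36 (SE), and Ckap4 also was well above background in 1 of 2 channels at 1 h. Gm6462 rose by 3.85. Rarg, a retinoic acid receptor, Mrps23, Impact and Dynlrb1, a dynein light chain, fell by 1.37, 1.37, 1.30 and 1.27. Rarg was dim at 6 h (6.28 and 6.58), and its other kept probe changed by 0.045. That of Mrps23 changed by -0.34.

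Over all genes 2.81% were called higher and 1.77% lower at 6 h than at 1 h, and the lists are given beside these shares. Of 17 NF-kB feedback and early response genes, 3 were higher. Ier3, an NF-kB-induced survival gene, rose by 2.55, Nfkbia by 1.08 and the adhesion gene Icam1 by 0.46, with limma adjusted p of 0.01449, 0.01794 and 0.0327. Ccl3 was the 1 called of 16 cytokine and chemokine genes, at 1.41 ± 0.18 (SE, adjusted p = 0.01957). Hspa5, the ER chaperone BiP, was the 1 of 21 unfolded protein response genes, at 1.83, and Lyz2 the 1 of 19 macrophage identity genes, at 0.44. Oxidative phosphorylation had 4 of 30 higher (Ndufs3 8.59-fold, Cox7c 2.14-fold, Atp5c1 1.69-fold and Atp5b by 0.58 log2) and 1 lower (Ndufs1, -0.73, but 0.134 with processed signals). Translation factors had 3 of 23 higher, led by Tpt1 (1.27), and cytosolic ribosomal proteins 2 of 41, Rpl30 (2.14) and Rpl23 (0.71, with its other probe at -0.26). Splicing factors had 2 of 33 higher (Ddx5 and Sf3b1) and 2 lower (Clk4 and Srrm2), and proteasome subunits 2 of 30 higher (Psma1 and Psmc5) and 1 lower (Psma4). Histones had 2 of 16 lower (H1f0 and H2ax, the second at 0.0531 with processed signals). Hypoxia targets (Slc2a1 and P4ha1), G2/M genes (Cenpa and Cdc25b) and MHC class I genes (Erap1 and H2-D1) had 1 higher and 1 lower each, in that order. Heat-shock chaperones (Cct5) and the Myc network (Nop56) had 1 higher each. Autophagy (Gabarap), LXR targets (Abca1), phagocytic receptors (Clec4d), G1/S genes (Ccne2) and apoptosis regulators (Casp9) had 1 lower each, of which Clec4d and Casp9 were at 0.0914 and 0.0135 with processed signals. Other kept probes of the higher genes changed by 0.05 (Icam1), 0.18 (Lyz2), 0.15 (Nop56), -0.14 (Ddx5), -0.04 (Sf3b1) and -0.03 (Psmc5). For Atp5b they changed by -0.09, 0.05 and 0.29, and for Rpl30 by 3.99. Those of the lower genes changed by -0.16 and 0.08 (Clk4), -0.17 (H1f0), -0.40 (P4ha1), 0.01 (Cdc25b), -0.25 (Gabarap), 0.02 (Ccne2) and -0.025 (Psma4).

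Other probes again read differently. The 166 other probes of 121 higher genes moved by a median of 0.00, and the 110 of 87 lower genes by -0.01. Every other probe moved the same way by at least 0.5 of the change in 9 genes: Ankrd39, Dynlt3, Mthfd1, Prpf38b, Rpl30, Rpl6, Rtca, Scaper and Znhit6. Dusp4 and Gabarap did so among those lower. Mthfd1, a folate-cycle enzyme, rose by 1.41 on 1 probe and 0.71 on the other. In the treated channel 336 of 346 higher genes and 218 of 220 lower genes had the same sign, with medians of 0.86 and -1.04. Among those that did not were Ccl3, Lyz2 and Slc2a1, whose treated channels changed by -0.36, -0.70 and -0.70.

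**Figure D4:**
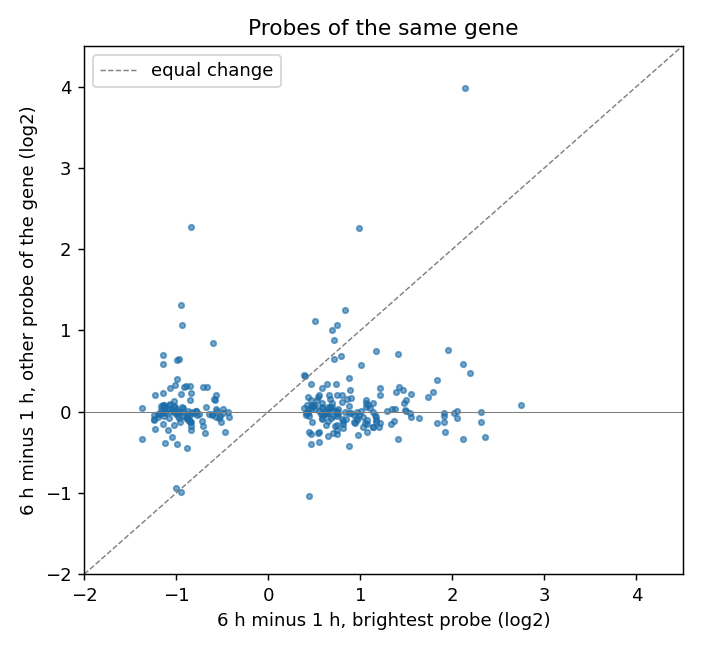
Each point is another kept probe of a gene called between 6 h and 1 h, with the change of the brightest probe on the x axis and its own on the y axis (log2); the dashed line marks equal change. Most points lie along 0 on the y axis, with medians of 0.00 for higher and -0.01 for lower genes.

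Control oligos were read on the same channels. The 10 E1A spike-in probes, whose RNA is added at labelling and not made by the cells, changed between 6 h and 1 h by a median of -0.04 log2 relative to the 75th percentile of each channel, from -0.28 to 0.70. The highest, n9, read 5.42, 5.99, 6.21 and 6.30 at 1, 2, 4 and 6 h on the L. acidophilus slide and 5.87, 6.00, 6.17 and 6.39 on the B. clausii slide. It was higher at each later time on both slides. A second spike-in probe, a97, was also lowest at 1 h on both slides and changed by 0.41 between 6 h and 1 h. Between 6 h and 4 h the 10 probes changed by -0.09 to 0.15. The part of this in the gene changes was not tested.

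No gene passed the test of a difference between the slides in late minus early: the interaction called 0 of 12687 genes (0%) in limma, with 257 (2.03%) at an unadjusted p under 0.05. Deviations from the slide mean correlated at r = 0.54 between the 1 h channels of the slides, and at 0.16, 0.23 and 0.15 between those of 2, 4 and 6 h. Channels of different times on the 2 slides correlated at -0.44 to 0.26, a range that holds the 2, 4 and 6 h values.

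**Figure D5:**
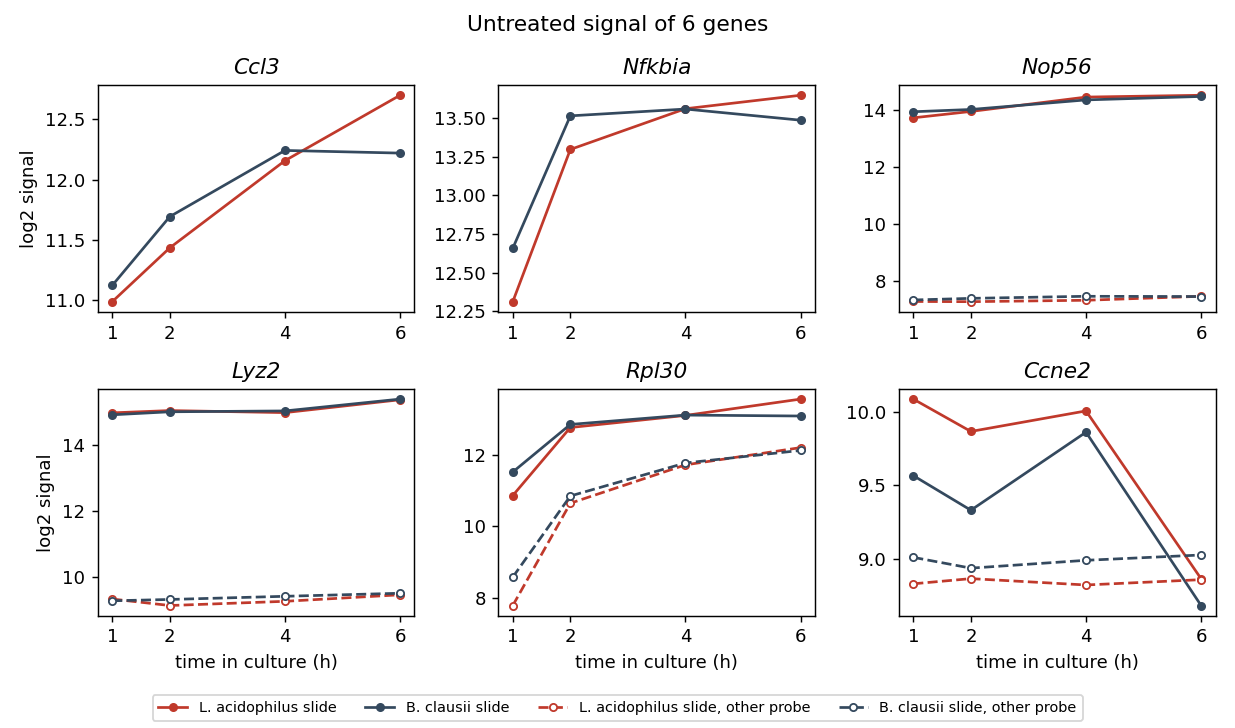
Log2 signal of 6 genes in the untreated channels against time in culture, for the L. acidophilus slide (red) and the B. clausii slide (dark blue), with the brightest probe as solid lines and another probe of the gene as dashed lines. Ccl3 and Nfkbia were lowest at 1 h, both Rpl30 probes were lowest at 1 h, and of the Ccne2 probes the brightest was lower at 6 h.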

How the data were processed

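Per the file headers, each deposited intensity is a spot's mean foreground or its median local background, beside a processed intensity and 0 or 1 flags, from Agilent Feature Extraction (10.7.3.1 in the headers, 10.5.1.1 per the submitters' processing notes). Here the green intensities were corrected by normexp (offset 50) and quantile-normalized in limma 3.58.1 (R 4.3.3, statmod and data.table). Outlier-flagged backgrounds over 3 times the array median were set to it and their spots left out, as were flagged spots. Probes well above background on at least 4 of 8 channels were kept (18308), with the brightest probe per gene. Genes were named through RefSeq tables of GRCm38.p6 (27668 probes by accession); positions are mm9. Late and early were compared with slide as a block (5 residual degrees of freedom), steps with slide and time (3). Replicate numbers only name channels. Named genes were up to 10 per direction by smallest p where none was called, 4 per step, the largest called list members, a 30-gene panel and the 25 brightest. Members and lists were chosen with earlier results of these data known. The scripts were tested on simulated data. Some genes are not reported here.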

Additional observations from a re-analysis of the deposited data

Results flagged for a closer look

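Of 112 groups of 4 channels tested for an outlying channel among the named genes, 6 held one far from the other 3. The rule is set to flag about 1 in 20 groups and does not weigh the size of a gap. The count therefore does not tell what lies behind a single case, which was not tested. The Junb signal was 9.23 at 4 h on the B. clausii slide, against 14.47 to 14.65 in the other late channels. The Cd68 signal was 11.64 at 2 h on the B. clausii slide, against 13.61 to 13.74 in the other early channels. The treated channel was low in the same spots (8.59 for Junb and 11.01 for Cd68). Ccl3 was 12.70 at 6 h on the L. acidophilus slide, against 12.16 to 12.24 in the other late channels. Tlr4 was 9.43 at 6 h on the B. clausii slide, against 9.74 to 9.79. Among early channels, Npm1 was 15.3 at 1 h on the L. acidophilus slide, against 15.38 to 15.40, and Dynlrb1 was 13.92 at 1 h on the B. clausii slide, against 13.53 to 13.58.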

How the results depend on the processing

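The count of 0 for late minus early was the same under every background, scaling, filter, probe and prior setting and without each channel or slide (0 to 0), but 41 genes passed with time in hours as a number, 199 without the 2 h channels and 153 without the 4 h channels. For 2 h minus 1 h, 1 gene passed with processed signals, 3 with the filter on all 8 channels and 4 at an adjusted p under 0.1. For 6 h minus 4 h the 90 became 0 with a normexp offset of 0, 0 with processed signals, 41 with no filter, 15 with the mean over probes and 141 at an adjusted p under 0.1. Leaving out 1 channel (chosen after seeing the data) gave 0 to 641, the highest without the 6 h channel of the L. acidophilus slide. The contrast of 6 h minus 1 h was also added after seeing the data. Its count of 581 became 30 with processed signals, 373 with no filter and 940 at an adjusted p under 0.1. With processed signals 20 of the 357 higher and 6 of the 224 lower genes stayed called, so the 30 include other genes. Without 1 channel the count was 0 to 1448, and 0 without either 4 h channel. Under processed signals 87 of the 89 falls kept their sign, with a median of -0.46. Turned in sign there were Clec4d (0.0667) and H2ax (0.0493) at 6 h minus 4 h, and Clec4d (0.0914), Ndufs1 (0.134), H2ax (0.0531) and Casp9 (0.0135) at 6 h minus 1 h. Rarg was 0.0450 with the filter on all 8 channels, which reads another probe. Of the 25 brightest genes, 20 to 25 stayed under the alternatives. Late and early channels were paired by slide, which was a block in the reported fits (0 genes also passed with no slide block); replicate numbers only name channels and pair nothing. The causes were not tested.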
